A study of Homo sapiens with 64 samples.

Results

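Genes of the hypoxia response and of glycolysis are described here in lymphoma cell lines: 40 genes, chosen by name, each read through its named probe with the highest mean signal on the 42 arrays of a treatment time course. Of the 40 genes, 39 had a named probe. SLC16A3, a lactate exporter, had none, so its expression is not analysed here. EGLN3, an oxygen-dependent prolyl hydroxylase, was detected on 0 of the 42 arrays, which left 38 genes to be tested among 13366 detected genes, out of 20046 genes with a named probe.

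SUDHL2 and SUDHL6 are established diffuse large B-cell lymphoma lines grown in vitro. Each was profiled on Illumina single-channel expression arrays without treatment, after DMSO (the solvent used as vehicle) for 1, 2 or 12 h, and after OTX015 for the same times. This made 14 groups, each of 3 arrays. OTX015 blocks the bromodomains through which BET proteins read acetylated histones at active genes. A further 22 untreated lymphoma lines, 1 array each, formed a panel of basal levels that also held both lines. The dose of OTX015, the amount of DMSO, the hour at which the not treated cells were taken and the way the cells were handled are unknown from the labels, so the solvent, the handling and the time in culture cannot be told apart in a comparison of DMSO with not treated cells.

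Cells sense oxygen through prolyl hydroxylases such as EGLN1, which mark the alpha subunits of hypoxia-inducible factor (HIF) for destruction while oxygen is present. When oxygen falls, HIF accumulates, pairs with ARNT and binds the core letters ACGTG or GCGTG near its target genes. The targets bring in more glucose, run glycolysis to lactate, hold back pyruvate oxidation, remove mitochondria, slow growth signalling and call for new vessels. Several of them, EGLN1 among them, feed back on the sensor, and many also answer to MYC, to stress or to nutrients. Lymphoma cells make much use of glycolysis in culture.

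Levels below are log2 normalised intensities, each with 3 values in replicate order. A difference is a log2 fold change ± standard error (SE) from a limma fit over all 13366 genes, with its p-value adjusted by Benjamini-Hochberg over those genes. A gene is said to have risen or fallen where that p was below 0.05. Where a call was lost with an array left out, the adjusted p given is the highest over all alternatives tried for that gene. Median signals were 88.55 to 115.5 on the 42 time-course arrays, 33.97 to 42.04% of probes were detected, and arrays of a group correlated at 0.982 to 0.995. The B-cell markers CD79A, CD79B, MS4A1 and CD22 were detected on all 42 arrays and the PAX5 probe on none. Of 6 markers each, CD68 was the one myeloid marker detected on all 42 arrays, beside CD14 on 32 and LYZ on 26. Among T and NK cell markers CD3D was detected on 18 and CD3E and NKG7 on none, and among stromal and epithelial markers EPCAM was detected on 21, DCN on 18 and KRT8 on none. No label says that replicate arrays came from separate cultures. The p-values thus rest on array-to-array spread, which may be technical. In a bulk sample, fewer cells with a transcript and less transcript per cell cannot be told apart.

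The levels on each array, relative to the not treated mean of the line, are shown for the 38 genes.

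**Figure D1:**
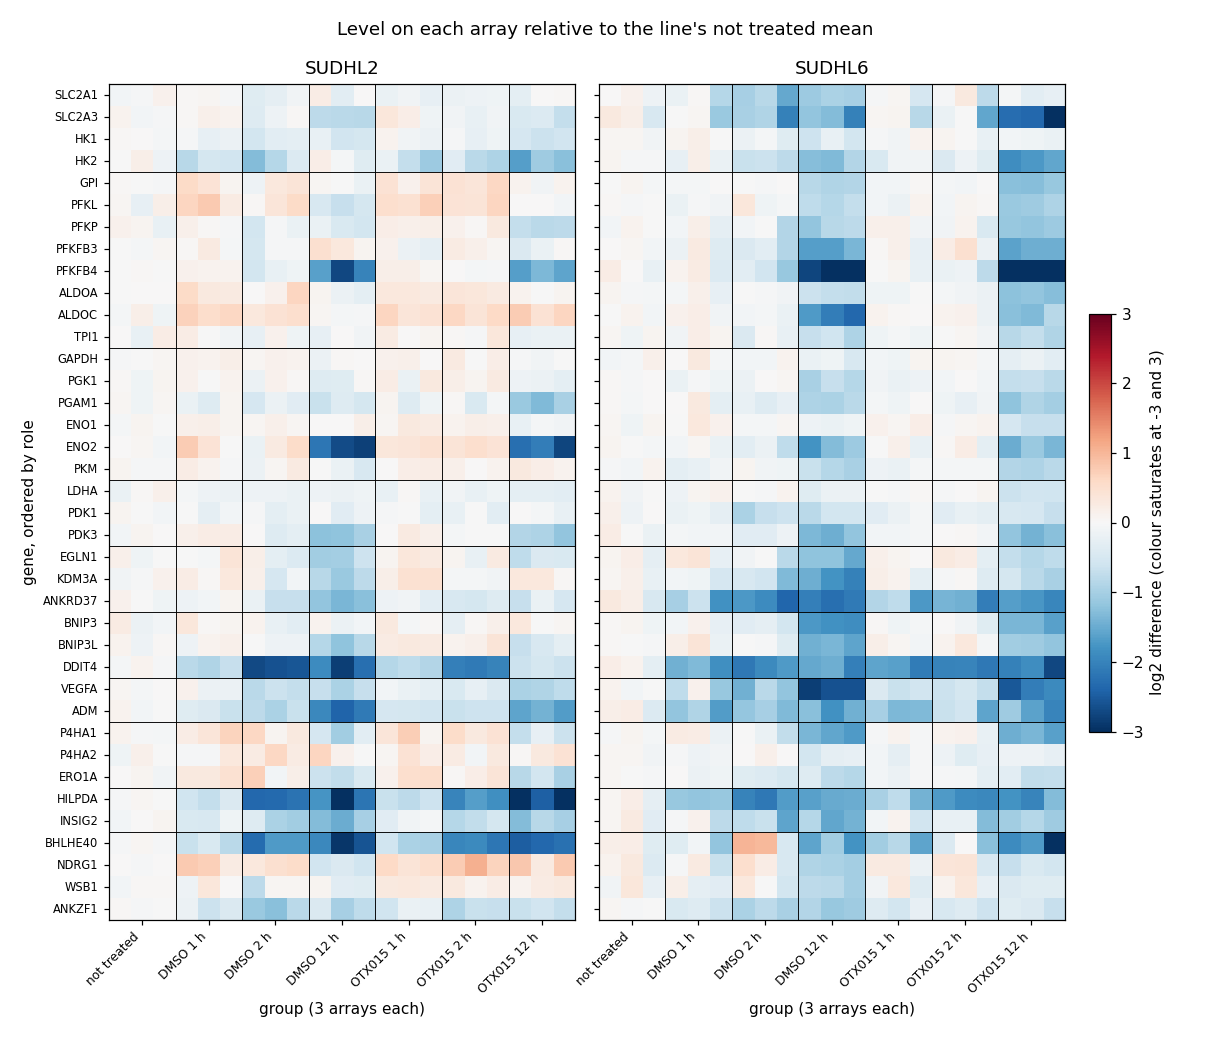
Log2 difference of each array (columns, 3 per group) from the not treated mean of its line, for the 38 genes (ordered by role, lines between roles), in SUDHL2 (left) and SUDHL6 (right). Blue is lower and red is higher. Most genes are blue at 12 h with DMSO and with OTX015, and DDIT4 is blue from 1 h on in both lines.

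DMSO for 12 h was compared with no treatment first, because the vehicle arrays are the reference for OTX015. In SUDHL6, 36 of the 38 genes fell and none rose. Over all 13366 genes 8.18% fell and 8.73% rose in that comparison. The median difference of the 38 genes was -1.09, against 0.00 for all genes, and 21 genes were at least 2-fold lower. All 3 DMSO arrays lay below all 3 not treated arrays for 37 of the 38 genes, as they did for 14.2% of all genes, and above them for none (15.1% of all genes). In SUDHL2, 19 of the 38 fell and none rose, where 10.9% of all genes fell and 12.1% rose. The median was -0.53 against 0.01, and 9 genes were at least 2-fold lower. In SUDHL2 all 3 DMSO arrays lay below the not treated ones for 21 genes (19.1% of all genes did so), and above them for 1 (21.4%). The 19 genes that fell in SUDHL2 all fell in SUDHL6, and they are 52.8% of the genes that fell there. The overlap of all genes between lines was not computed. Without the SUDHL6 arrays of replicate 3, which read low for several of the genes, 34 fell in SUDHL6.

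Under oxygen sensing and its feedback, the 3 genes tested, ANKRD37, KDM3A and EGLN1, fell in both lines. EGLN2 and HIF1AN, outside the genes chosen, did not fall and are given with the HIF machinery below. ANKRD37, an ankyrin repeat protein that HIF induces, read 9.52, 9.38 and 9.25 in not treated SUDHL2 and 8.20, 8.02 and 8.13 after DMSO (-1.27 ± 0.22, adjusted p = 2.55e-05). In SUDHL6 it went from 9.02, 8.89 and 8.25 to 6.66, 6.45 and 6.60 (-2.15 ± 0.22, adjusted p = 2.47e-09). The DMSO arrays lay close together and far below the not treated ones in both lines. KDM3A, a histone demethylase, fell by 0.91 in SUDHL2 (adjusted p = 0.000129) and by 1.77 in SUDHL6 (adjusted p = 1.26e-09), where it went from 9.12, 9.20 and 8.84 to 7.58, 7.25 and 7.02. EGLN1 fell by 0.89 and 1.32.

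The signals sent out of the cell and the lipid genes also fell in both lines. VEGFA, the main growth factor for vessels, read 9.45, 9.27 and 9.32 in not treated SUDHL6 and 6.52, 6.74 and 6.73 after DMSO (-2.68 ± 0.18, adjusted p = 1.34e-14). In SUDHL2, where its not treated level was lower at 7.16, 7.05 and 7.12, it fell by 0.78 (adjusted p = 0.00104). The not treated SUDHL6 arrays thus stood above every other array of both groups and lines. ADM, which encodes the vessel-widening peptide adrenomedullin, went from 11.06, 10.87 and 10.94 to 9.02, 8.56 and 8.84 in SUDHL2 (-2.15 ± 0.20, adjusted p = 1.07e-10). In SUDHL6 its not treated levels were 6.88, 6.94 and 6.30, and it was detected on 0 of 3 DMSO arrays, so it was at least 2.42-fold lower (adjusted p = 1.08e-06). ADM was thus abundant in SUDHL2 and near background in SUDHL6. HILPDA, which coats lipid droplets and holds back their breakdown, went from 12.97, 13.06 and 12.99 to 11.25, 9.98 and 10.82 in SUDHL2 (-2.32 ± 0.20, adjusted p = 5.04e-12) and fell by 1.55 in SUDHL6 (adjusted p = 2.8e-07). INSIG2, which keeps the sterol sensor in the endoplasmic reticulum, fell by 1.26 in SUDHL2 and 1.28 in SUDHL6.

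Among genes of mitophagy and growth control, DDIT4, an inhibitor of the mTOR growth pathway, read 10.22, 10.37 and 10.24 in not treated SUDHL2 and 8.38, 7.44 and 8.02 after DMSO (-2.33 ± 0.18, adjusted p = 1.02e-12). In SUDHL6 it fell by 1.69 (adjusted p = 8.51e-09). BNIP3, a receptor that marks mitochondria for removal, read 11.12, 11.19 and 10.98 in not treated SUDHL6 and 9.37, 9.28 and 9.24 after DMSO (-1.80 ± 0.14, adjusted p = 1.06e-12). Neither gene's groups overlapped. In SUDHL2 BNIP3 lay near background at 5.52, 5.09 and 5.18 and was detected on 1 of 3 not treated arrays. BNIP3L, its close relative, fell in both lines, by 0.97 and 1.47.

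The steps of glycolysis split by line. PFKFB4 sets the level of the sugar phosphate that switches phosphofructokinase on. It read 11.42, 11.20 and 10.98 in not treated SUDHL6 and 8.45, 7.70 and 7.25 after DMSO (-3.40 ± 0.22, adjusted p = 4.89e-15), and in SUDHL2 it went from 10.29, 10.34 and 10.29 to 8.69, 7.58 and 8.30 (-2.12 ± 0.22, adjusted p = 7.62e-10). ENO2, an enolase best known from neurons, read 8.22, 8.28 and 8.14 in not treated SUDHL2 and 6.06, 5.52 and 5.42 after DMSO (-2.55 ± 0.19, adjusted p = 5.44e-13), and fell by 1.39 in SUDHL6. Both genes' DMSO arrays lay well below the not treated ones in both lines. ALDOC, an aldolase, went from 12.08, 12.18 and 11.99 to 10.37, 10.01 and 9.74 in SUDHL6 (-2.04 ± 0.13, adjusted p = 1.63e-15). In SUDHL2 its levels of 11.82, 12.06 and 11.74 stood beside 11.94, 11.82 and 11.85 after DMSO, with overlapping groups and a difference of -0.00 (adjusted p = 0.994).

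Most other steps of glycolysis were lower in SUDHL6. All 8 genes of middle glycolysis, 5 of 6 of lower glycolysis and all 4 of glucose uptake and phosphorylation fell there, against 2, 2 and 1 in SUDHL2. In SUDHL6 the glucose transporters SLC2A3 and SLC2A1 fell by 1.498 and 1.01, the hexokinases HK2 and HK1 by 1.16 and 0.47 (HK1 did not pass with the mean of its probes, adjusted p = 0.662), and PFKFB3, the sister of PFKFB4, by 1.56. PFKP, a phosphofructokinase subunit, fell by 0.93 (adjusted p = 3.35e-05), while its other detected probe gave 0.03. The enzymes GPI, PGK1, PGAM1, TPI1 and ALDOA and the pyruvate kinase PKM fell by 0.70 to 0.89. GAPDH (-0.27, adjusted p = 0.0386) and LDHA (-0.24, adjusted p = 0.0452), which makes lactate, passed narrowly on the probe used. Their other detected probes gave -0.45 and -0.44 for GAPDH (adjusted p over probes = 0.00468 and 0.00554) and -0.54 and -0.90 for LDHA (0.000407 and 0.000254). On the probe used, both calls were lost when replicate 3 of SUDHL6 was left out throughout. GAPDH also lost its call without not treated replicate 2 or 3 or DMSO replicate 3 (adjusted p up to 0.59), and LDHA without not treated replicate 1 or 3 or DMSO replicate 1 (up to 0.243). ENO1, the general enolase, did not pass (-0.16 ± 0.08, adjusted p = 0.193). In SUDHL2, HK2 (-0.08), SLC2A1 (-0.03), GAPDH (-0.04), ENO1 (0.07) and LDHA (-0.16, adjusted p = 0.211) did not pass, and SLC2A3 (-0.80, adjusted p = 0.0601) was near background.

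Among the other genes, BHLHE40, a repressor of transcription, read 9.96, 10.04 and 9.96 in not treated SUDHL2 and 8.05, 7.08 and 7.40 after DMSO (-2.48 ± 0.32, adjusted p = 7.84e-08), and fell by 1.47 in SUDHL6. PDK3, a kinase that shuts off pyruvate dehydrogenase, fell by 1.14 and 1.33. P4HA1, a subunit of the enzyme that hydroxylates collagen, fell by 0.62 in SUDHL2 and 1.54 in SUDHL6. The SUDHL2 call for P4HA1 was lost without DMSO replicate 2 (adjusted p = 0.109). ERO1A, which drives disulphide formation in the secretory pathway, fell by 0.62 and 0.67. P4HA2 did not pass in either line (0.25 and -0.35). NDRG1, a stress-induced protein, was detected on 0 of 3 SUDHL6 DMSO arrays and was at least 1.61-fold lower (adjusted p = 0.00142), and in SUDHL2 it did not pass (-0.53, adjusted p = 0.0777).

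**Figure D2:**
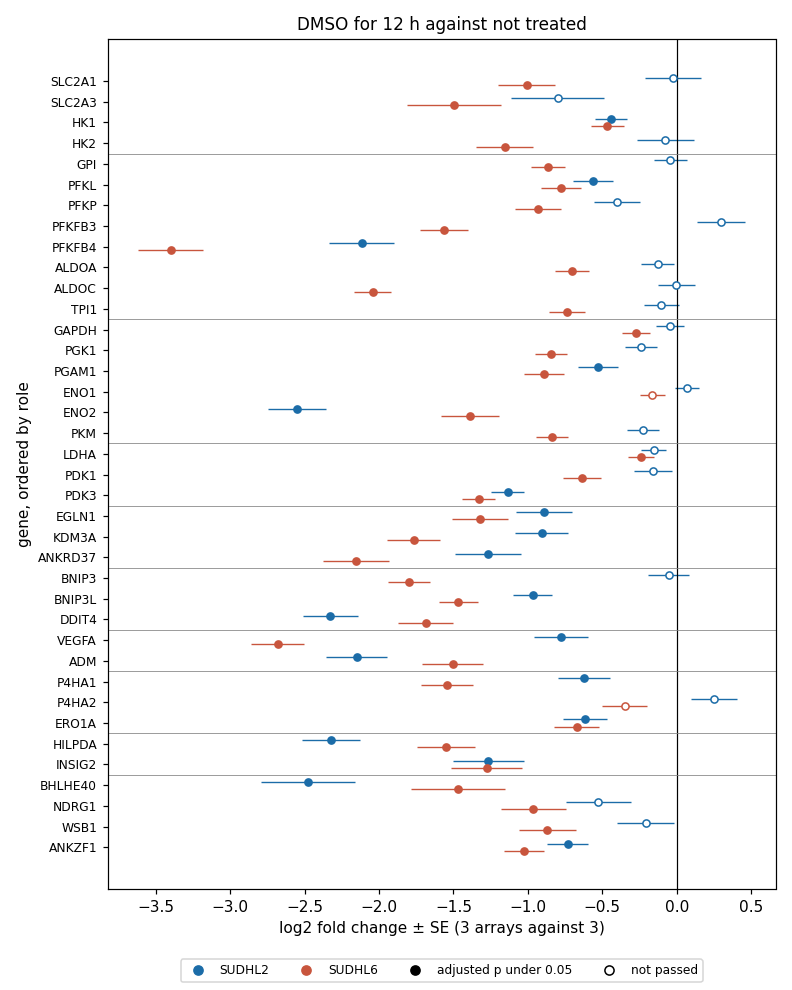
Log2 fold change ± SE of DMSO for 12 h against not treated (3 arrays against 3) for the 38 genes, ordered by role, in SUDHL2 and SUDHL6. Filled points passed an adjusted p under 0.05. Every SUDHL6 point lies left of 0, down to -3.40 for PFKFB4, while several SUDHL2 points of glycolytic enzymes lie near 0.

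The 12 h comparison was also read within slides. On both slides that held SUDHL6 arrays of the 2 groups, 38 of 38 genes were lower with DMSO at 12 h. The medians were -1.17 and -1.05, against -0.02 and 0.01 for all genes, with 1 or 2 arrays a group. On the slide that held 2 SUDHL2 arrays of each group, 33 of 38 were lower (median -0.50, against 0.02 for all genes). The remaining SUDHL2 array of each group sat on a slide without the other group. The share of all genes lower within a slide was not computed. Summed B-cell marker signal was 13380 to 17740 in not treated SUDHL6 and 11380 to 14880 after DMSO for 12 h, and 4488 to 5104 and 6112 to 6882 in SUDHL2. The part of these marker levels in the result was not tested.

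The promoters were read for the HIF core letters, since ACGTG and GCGTG lie in the element through which HIF acts. RefSeq windows of the 250 bases before the start (build GRCh38.p14) were available for 32 of the 38 tested genes. Only the first listed window of each gene was read. Some genes have several, such as HK1 with 7, and letters in the others were not counted. ACGTG or GCGTG stood on either strand in 24 of the 32 windows (75%). The share was 43.1% over all 27305 genes with a window and 55.4% over the 10530 detected ones. For ACGTG alone the count was 18 (56.2%, against 22.9% of detected genes), and for GCGTG alone 14 (43.8%, against 43.5%). CACGTG, the E-box that MYC and other factors read and that holds ACGTG on both strands, stood in 7 (21.9%, against 8.66%). A match is a description of letters and not a bound site. Printed first are the windows of the 5 genes among the 6 largest falls of SUDHL2 after DMSO for 12 h that had one, then ANKRD37, LDHA and PGK1, chosen after their values were seen. Each is shown with the matched letters, or their reverse complement, in capitals.
ENO2, chr12:6914330-6914579, + strand: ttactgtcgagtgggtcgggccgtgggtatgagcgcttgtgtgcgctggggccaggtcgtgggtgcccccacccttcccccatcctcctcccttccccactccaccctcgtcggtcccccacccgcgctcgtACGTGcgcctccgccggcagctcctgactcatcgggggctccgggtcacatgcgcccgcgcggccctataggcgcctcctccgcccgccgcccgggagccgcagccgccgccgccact
BHLHE40, chr3:4979187-4979436, + strand: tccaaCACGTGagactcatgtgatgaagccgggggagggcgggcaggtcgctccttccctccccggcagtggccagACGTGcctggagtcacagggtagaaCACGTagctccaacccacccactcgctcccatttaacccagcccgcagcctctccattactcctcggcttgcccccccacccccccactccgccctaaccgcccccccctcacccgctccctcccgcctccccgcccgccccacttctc
DDIT4, chr10:72273674-72273923, + strand: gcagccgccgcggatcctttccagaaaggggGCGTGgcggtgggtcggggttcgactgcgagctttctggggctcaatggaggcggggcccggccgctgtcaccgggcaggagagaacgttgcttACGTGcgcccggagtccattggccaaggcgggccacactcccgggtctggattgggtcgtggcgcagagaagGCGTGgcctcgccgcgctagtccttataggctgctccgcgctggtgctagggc
ADM, chr11:10304823-10305072, + strand: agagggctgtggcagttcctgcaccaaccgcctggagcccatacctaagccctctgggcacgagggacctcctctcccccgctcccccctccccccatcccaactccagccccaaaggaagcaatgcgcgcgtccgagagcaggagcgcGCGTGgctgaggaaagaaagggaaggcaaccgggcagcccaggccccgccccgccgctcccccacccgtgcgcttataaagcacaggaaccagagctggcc
PFKFB4, chr3:48556804-48557053, - strand: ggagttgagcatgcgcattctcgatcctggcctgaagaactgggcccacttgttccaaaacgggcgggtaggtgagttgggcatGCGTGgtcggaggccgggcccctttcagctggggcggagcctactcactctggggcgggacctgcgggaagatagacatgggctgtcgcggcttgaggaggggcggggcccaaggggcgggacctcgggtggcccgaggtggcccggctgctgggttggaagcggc
ANKRD37, chr4:185396591-185396840, + strand: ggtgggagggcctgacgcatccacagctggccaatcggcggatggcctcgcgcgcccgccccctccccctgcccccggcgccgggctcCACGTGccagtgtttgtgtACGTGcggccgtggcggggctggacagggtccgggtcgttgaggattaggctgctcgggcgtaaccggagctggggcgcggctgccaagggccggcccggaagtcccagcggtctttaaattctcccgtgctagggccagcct
LDHA, chr11:18394313-18394562, + strand: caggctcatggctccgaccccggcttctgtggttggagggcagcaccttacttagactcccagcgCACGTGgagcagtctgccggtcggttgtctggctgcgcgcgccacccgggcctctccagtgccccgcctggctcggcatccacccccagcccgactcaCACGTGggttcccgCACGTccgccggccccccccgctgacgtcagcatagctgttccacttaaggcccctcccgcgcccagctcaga
PGK1, chrX:78103998-78104247, + strand: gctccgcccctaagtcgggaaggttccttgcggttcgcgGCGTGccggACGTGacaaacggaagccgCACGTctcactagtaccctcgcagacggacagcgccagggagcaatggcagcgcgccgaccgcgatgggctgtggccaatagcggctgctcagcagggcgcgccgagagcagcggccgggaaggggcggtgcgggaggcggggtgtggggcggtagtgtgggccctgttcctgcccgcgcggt
Each of the windows of DDIT4, BHLHE40, LDHA and PGK1 held 3 separate stretches of the letters, that of ANKRD37 held 2, and those of ENO2, ADM and PFKFB4 held 1. PFKFB4, with 1 stretch, had the largest fall in SUDHL6 (-3.40) and ENO2, also with 1, the largest in SUDHL2 (-2.55). DDIT4, BHLHE40 and ANKRD37 fell by 1.27 to 2.48 in SUDHL2 and by 1.47 to 2.15 in SUDHL6 after DMSO for 12 h. LDHA with 2 E-boxes and 3 stretches fell by 0.24 in SUDHL6 on the probe used, and PGK1 fell there by 0.84. In SUDHL2 neither LDHA nor PGK1 passed.

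The time course of DMSO showed which genes were lower first. At 1 h in SUDHL6, 4 of the 38 genes fell and none rose, where 0.456% of all genes fell and 1.33% rose. At 2 h, 15 fell (6.43% of all genes) and none rose (5.3%). The 36 at 12 h are given above. In SUDHL2 the counts fallen were 2 at 1 h (2.63% of all genes), 9 at 2 h (6.03%) and 19 at 12 h, while 3 rose at 1 h (3.54%) and 1 at 2 h (7.98%). The 3 times share the not treated arrays, so their differences are not independent of each other. DMSO at 12 h set against DMSO at 1 h, which uses no not treated array, gave 34 of 38 genes fallen and none risen in SUDHL6 (9.5% of all genes fell, 9.13% rose) and 26 fallen and 1 risen in SUDHL2 (14.9% and 14%).

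DDIT4 was lower at every hour in both lines. In SUDHL6 it read 11.87, 11.77 and 11.38 without treatment, 10.24, 10.34 and 9.84 at 1 h (-1.53 ± 0.18, adjusted p = 1.77e-07), 9.53, 9.77 and 9.97 at 2 h and 10.14, 10.21 and 9.62 at 12 h. In SUDHL2 it read 9.47, 9.38 and 9.58 at 1 h (-0.80 ± 0.18, adjusted p = 0.00478) and 7.57, 7.65 and 7.72 at 2 h (-2.63 ± 0.18, adjusted p = 1.24e-13). Its DMSO arrays never reached the not treated ones, and in SUDHL2 the level at 1 h lay between those without treatment and those at 2 h.

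ANKRD37, HILPDA and ADM made up the other genes lower at 1 h in SUDHL6. ANKRD37 read 7.73, 8.07 and 6.90 at 1 h (-1.15 ± 0.22, adjusted p = 0.00102) and 6.998, 6.83 and 6.35 at 2 h (-1.998, adjusted p = 9.36e-09). HILPDA read 9.14, 9.28 and 8.81 without treatment, 7.95, 7.89 and 7.93 at 1 h (-1.15 ± 0.20, adjusted p = 0.000146) and 7.08, 6.94 and 7.39 at 2 h. ADM read 5.52, 5.80 and 5.02 at 1 h (-1.25 ± 0.20, adjusted p = 8.28e-05). For each of the 3 genes no array at 1 h reached the lowest not treated array. In SUDHL2, HILPDA read 10.64, 10.67 and 10.78 at 2 h (-2.31, adjusted p = 1.75e-11), and ADM fell by 0.80 (adjusted p = 0.00527).

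At 2 h the genes fallen in both lines were HK2, DDIT4, VEGFA, ADM, HILPDA, INSIG2 and ANKZF1, a factor that frees stalled ribosomes. These 7 are 77.8% of those fallen in SUDHL2 and 46.7% of those in SUDHL6, with no such overlap computed over all genes. INSIG2 lost its SUDHL2 call without replicate 2 or 3 of either group (adjusted p up to 0.111) and its SUDHL6 call without DMSO replicate 3 (up to 0.0598), and HK2 its SUDHL6 call without replicate 3 throughout (up to 0.0629). ANKZF1 went from 8.38, 8.33 and 8.35 to 7.23, 7.10 and 7.54 in SUDHL2 (-1.06, adjusted p = 3.46e-07) and fell by 0.90 in SUDHL6. In SUDHL6 the glucose transporters were lower at 2 h as well. SLC2A1 went from 10.24, 10.35 and 10.07 to 9.23, 9.40 and 8.69 (-1.11, adjusted p = 4.33e-05), and SLC2A3 from 10.77, 10.66 and 9.99 to 9.51, 9.58 and 8.44 (-1.30, adjusted p = 0.00344). In both genes the array of replicate 3 was the lowest of its group, and the SLC2A3 call was lost without DMSO replicate 3 (adjusted p = 0.061). A near-identical copy, SLC2A14, may share the SLC2A3 probe, so its values are uncertain.

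BHLHE40 moved apart in the 2 lines at 2 h. In SUDHL2 it went to 7.68, 8.30 and 8.29 (-1.90, adjusted p = 2.66e-05), while in SUDHL6 it read 11.41, 11.35 and 9.90 beside not treated values of 10.56, 10.58 and 10.02. The SUDHL2 groups lay apart and the SUDHL6 groups overlapped. The difference between lines was 2.40 ± 0.45 (adjusted p = 0.000408). PFKFB4 and ENO2, among the most lowered genes at 12 h, did not pass at 1 h in either line. PFKFB4 read 11.32, 11.44 and 10.80 in SUDHL6 at 1 h, and ENO2 read 8.02, 8.48 and 8.77 in SUDHL2 at 2 h. Both overlapped the not treated arrays. In SUDHL6 at 2 h PFKFB4 had already fallen, at 10.88, 10.63 and 10.08, below its lowest not treated array of 10.98. ENO2 read 6.62, 6.76 and 6.19 there, also below its lowest not treated array of 6.88, but did not pass.

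The genes that rose with DMSO did so in SUDHL2 and early. ALDOC read 12.57, 12.41 and 12.5003 at 1 h (0.62 ± 0.13, adjusted p = 0.00127), above its not treated arrays, and was still higher at 2 h (0.41, adjusted p = 0.0204). PFKL, a phosphofructokinase subunit, went from 7.68, 7.39 and 7.80 to 8.27, 8.41 and 7.87 at 1 h (0.56 ± 0.13, adjusted p = 0.00724). ALDOA went from 11.48, 11.51 and 11.50 to 12.06, 11.79 and 11.75 (0.37 ± 0.11, adjusted p = 0.0338), but its other detected probes gave -0.13 and -0.02. In none of the 3 did the groups at 1 h overlap. HK2 fell at 1 h, from 9.53, 9.72 and 9.39 to 8.71, 9.02 and 8.97 (-0.65 ± 0.19, adjusted p = 0.031). The call of ALDOA was lost without any 1 of the not treated arrays or DMSO replicate 1 or 2, with 75th percentile scaling, without a filter and with the mean of its probes (0.08, adjusted p = 0.857), and that of HK2 without not treated replicate 1 or 2 or DMSO replicate 1 or 3 (up to 0.163). PFKL lost its call without replicate 2 of either group (up to 0.0885), and ALDOC at 2 h without not treated replicate 1 or 3 or DMSO replicate 2 or 3 (up to 0.118). With each array scaled to its 75th percentile instead of quantiles, 2 genes rose and 4 fell at 1 h in SUDHL2.

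**Figure D3:**
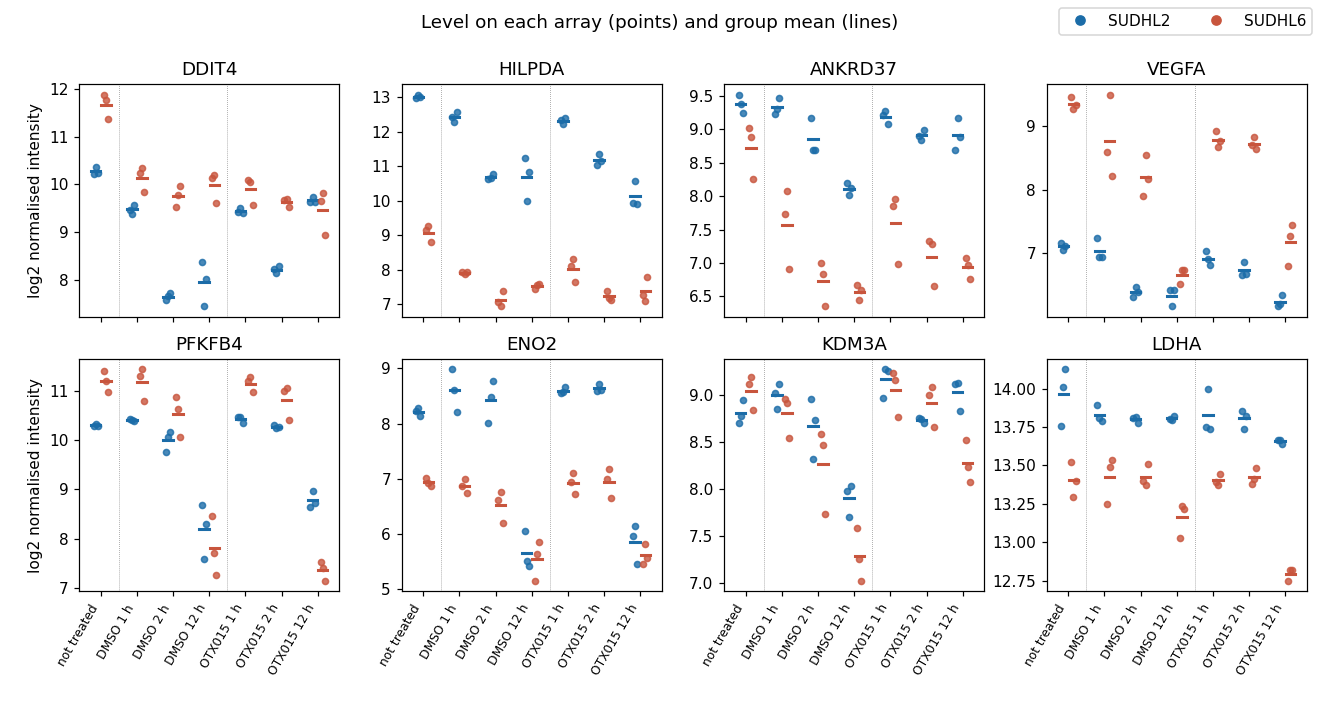
Log2 normalised intensity on each array (points) and group mean (lines) for 8 genes in the 7 groups of SUDHL2 (blue) and SUDHL6 (red). DDIT4 and HILPDA are low by 2 h in both lines, VEGFA, PFKFB4, ENO2 and KDM3A reach their lowest DMSO levels at 12 h, and LDHA spans a narrow range.

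The lines differed in how far the genes moved. The difference between lines in the 12 h DMSO response passed for 15 of the 38 genes, 14 of them with the larger fall in SUDHL6 (3.34% of all genes) and 1, ENO2, with the larger fall in SUDHL2 (2.69%). The widest of the 14 were ALDOC (-2.04, adjusted p = 1.17e-10), VEGFA (-1.90, adjusted p = 3.08e-06), PFKFB3 (-1.86, adjusted p = 5.85e-07) and BNIP3 (-1.75, adjusted p = 6.96e-08). BNIP3 had little signal to lose in SUDHL2. ENO2 ended low in both lines after DMSO for 12 h (means 5.66 in SUDHL2 and 5.55 in SUDHL6), from not treated means of 8.21 and 6.94. At 2 h the difference passed for 5 genes, 4 of them lower in SUDHL6 (4.08% of all genes) and BHLHE40 the other way (2.72%). ANKRD37 and BHLHE40 held under every alternative. The count fell to 2 without SUDHL2 not treated replicate 1 or 3 or SUDHL6 not treated replicate 1. It fell to 3 without SUDHL2 DMSO replicate 1 or 3, SUDHL6 not treated replicate 2 or SUDHL6 DMSO replicate 2 or 3, and was 9 with the replicate block. At 1 h it passed for none, where 0.681% and 0.808% of all genes passed in the limma fit. An unadjusted p below 0.05 was found for 12 genes, a share not computed over all genes.

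Before any treatment the lines already stood apart in several of these genes. Of the 38, 15 were higher in SUDHL2 and 11 in SUDHL6, where 27.1% and 25.5% of all genes were. With 75th percentile scaling the split was 11 and 14. ADM (4.25 ± 0.20, adjusted p = 2.22e-21) and HILPDA (3.93 ± 0.20, adjusted p = 6.51e-21) were the genes most above their SUDHL6 level in SUDHL2. BNIP3 (-5.83 ± 0.14, adjusted p = 8.73e-32) and SLC2A3 (-4.98 ± 0.31, adjusted p = 1.82e-17) were far below it. BNIP3 was detected on 1 of 3 not treated SUDHL2 arrays. SLC2A3, detected on all 3, read 5.61, 5.42 and 5.47 in SUDHL2, and VEGFA was lower there (-2.24, adjusted p = 3.62e-14).

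OTX015 was then set against DMSO at the same hour. At 1 h none of the 38 genes passed in either line, and none was below an unadjusted p of 0.05, where 0.142% of all genes fell and 0.0524% rose in SUDHL2 and 0.636% and 0.172% in SUDHL6 by limma. At 2 h none passed in SUDHL2, where 2.48% of all genes fell and 0.83% rose at the adjusted threshold. The median difference was 0.16, against 0.01 for all genes. Of the 38, 9 were below an unadjusted p of 0.05, a share not computed over all genes. In SUDHL6 at 2 h, 4 rose and 1 fell, where 2.77% of all genes rose and 3.26% fell. These comparisons share the DMSO arrays with those above, so a gene read low on the DMSO arrays is low in one and high in the other.

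In SUDHL6 at 2 h the glucose transporter SLC2A1 read 9.23, 9.40 and 8.69 with DMSO and 10.19, 10.51 and 9.43 with OTX015 (0.93 ± 0.19, adjusted p = 0.000851). The OTX015 arrays matched the not treated level of 10.07 to 10.35 in 1 of 3 cases, with 1 above and 1 below it. PFKFB3 went from 10.22, 10.33 and 9.76 to 10.87, 11.13 and 10.46 (0.71 ± 0.16, adjusted p = 0.00334), and KDM3A from 8.58, 8.47 and 7.74 to 9.01, 9.09 and 8.66 (0.65 ± 0.18, adjusted p = 0.0157). PDK1, a pyruvate dehydrogenase kinase, went from 5.23, 5.47 and 5.56 to 5.83, 5.94 and 5.89 (0.47 ± 0.13, adjusted p = 0.0188), close to background. In all 4 genes every OTX015 array lay above every DMSO array. BHLHE40 fell from 11.41, 11.35 and 9.90 to 9.96, 10.40 and 9.14 (-1.06 ± 0.32, adjusted p = 0.0338), with overlapping groups. Within each replicate number its OTX015 array lay below its DMSO array. The call of SLC2A1 held under every alternative. Leaving out OTX015 replicate 2 or DMSO replicate 3 ended the call of PFKFB3 (adjusted p up to 0.065), and leaving out these or OTX015 replicate 1 ended that of KDM3A (up to 0.24). PDK1 lost it without OTX015 replicate 2 or 3 or DMSO replicate 1 (up to 0.169), and BHLHE40 without OTX015 replicate 1 or 3 or DMSO replicate 1 or 2 (up to 0.261). The count of 5 fell to 2 without OTX015 replicate 2 and to 3 without OTX015 replicate 1, DMSO replicate 1 or DMSO replicate 3.

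At 12 h OTX015 moved these genes both ways. In SUDHL2, 10 of the 38 rose and 4 fell, where 17.7% of all genes rose and 16.5% fell. In SUDHL6, 8 rose and 7 fell, where 14% and 13% did. The medians were 0.11 and 0.05. Within slides they were 0.17 and 0.05 in SUDHL2 and -0.01 and 0.01 in SUDHL6. With 75th percentile scaling the SUDHL2 split was 7 risen and 5 fallen. Groups lay fully apart with OTX015 above in 11 genes in SUDHL2 (23.2% of all genes) and 13 in SUDHL6 (19.5%), and below in 6 (21.6%) and 7 (17.2%). As shares of the 38 genes, 26.3% rose and 10.5% fell in SUDHL2 and 21.1% and 18.4% in SUDHL6, near those of all genes.

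In SUDHL2 the largest rise was of DDIT4, from 8.38, 7.44 and 8.02 with DMSO to 9.62, 9.74 and 9.63 with OTX015 (1.72 ± 0.18, adjusted p = 5.44e-10). Its OTX015 arrays lay close together, above DMSO and below the not treated 10.22 to 10.37, from which they differed by -0.61 (adjusted p = 0.0072). NDRG1 went from 5.91, 6.05 and 5.89 to 7.28, 6.76 and 7.27 (1.15 ± 0.22, adjusted p = 4.53e-05), which was also above not treated cells (0.62, adjusted p = 0.0218). KDM3A went from 7.98, 7.70 and 8.03 to 9.12, 9.13 and 8.84 (1.13 ± 0.18, adjusted p = 2.02e-06), beside 8.71, 8.78 and 8.95 in not treated cells. For KDM3A the difference from not treated cells did not pass (0.22, adjusted p = 0.364).

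ANKRD37 followed in SUDHL2, from 8.20, 8.02 and 8.13 to 8.70, 9.17 and 8.88 (0.80 ± 0.22, adjusted p = 0.00368). ALDOC went from 11.94, 11.82 and 11.85 to 12.64, 12.31 and 12.52 (0.62 ± 0.13, adjusted p = 0.000114), with all OTX015 arrays above all others of the 3 groups at 12 h and without treatment. PFKFB4 went from 8.69, 7.58 and 8.30 to 8.65, 8.96 and 8.73 (0.59 ± 0.22, adjusted p = 0.0311), with overlap at DMSO replicate 1. ADM (0.59, adjusted p = 0.0212), PFKL (0.55, adjusted p = 0.00114), BNIP3L (0.48) and PKM (0.43) also rose, PKM not with the mean of its probes (adjusted p = 0.22). PFKFB4, ADM and BNIP3L did not pass with 75th percentile scaling. Their calls were also lost without DMSO replicate 2, those of PFKFB4 and ADM without OTX015 replicate 2, and that of PFKFB4 without OTX015 replicate 3 (adjusted p up to 0.374, 0.122 and 0.0632).

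Among the falls in SUDHL2, HK2, the inducible hexokinase, went from 9.74, 9.48 and 9.19 to 7.90, 8.48 and 8.30 (-1.24 ± 0.19, adjusted p = 1.22e-06). Every OTX015 array lay below every DMSO array by a wide gap, while its difference between DMSO and not treated cells at 12 h (-0.08) had not passed. PGAM1, a mutase of lower glycolysis, went from 9.93, 10.22 and 10.07 to 9.49, 9.28 and 9.62 (-0.61 ± 0.14, adjusted p = 0.000376). PFKFB3 went from 10.51, 10.35 and 10.12 to 9.61, 9.84 and 10.07 (-0.49 ± 0.16, adjusted p = 0.0166). HILPDA went from 11.25, 9.98 and 10.82 to 9.94, 10.57 and 9.92 (-0.54 ± 0.20, adjusted p = 0.0279) with overlapping groups. The HILPDA call was lost without OTX015 replicate 1 or 3 or DMSO replicate 1 or 3 (adjusted p up to 0.355), and the PFKFB3 call without replicate 1 of either group (up to 0.12).

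In SUDHL6 at 12 h, KDM3A and ALDOC rose again. KDM3A went from 7.58, 7.25 and 7.02 to 8.52, 8.24 and 8.07 (0.99 ± 0.18, adjusted p = 2.66e-05), and ALDOC from 10.37, 10.01 and 9.74 to 10.84, 10.75 and 11.25 (0.90 ± 0.13, adjusted p = 3.19e-07). SLC2A1 went from 9.13, 9.28 and 9.23 to 10.16, 9.90 and 9.98 (0.80 ± 0.19, adjusted p = 0.00111). The OTX015 arrays of the 3 genes lay above the DMSO arrays, and those of KDM3A and ALDOC below the not treated ones. EGLN1 went from 6.11, 6.12 and 5.78 to 6.61, 6.48 and 6.57 (0.55 ± 0.19, adjusted p = 0.0243). ANKZF1 went from 7.61, 7.34 and 7.42 to 8.13, 8.06 and 7.79 (0.53 ± 0.14, adjusted p = 0.00263, and 0.114 with the mean of its probes). VEGFA went from 6.52, 6.74 and 6.73 to 6.80, 7.27 and 7.44 (0.51 ± 0.18, adjusted p = 0.0309). BNIP3L (0.37) and HK1 (0.33) also rose. Of these 8 rises, KDM3A, ALDOC and SLC2A1 kept their call under every alternative tried. The calls of EGLN1, VEGFA and BNIP3L were lost without background correction and with the deposited values, those of EGLN1 and VEGFA also with offset 50, those of EGLN1 and HK1 with 75th percentile scaling, that of BNIP3L with slide as a block, and that of VEGFA with the mean of its probes. HK1 came to 0.04 with the mean of its probes (adjusted p = 0.847). Single arrays also ended the calls of EGLN1 (OTX015 replicate 1 or 3, or DMSO replicate 3, adjusted p up to 0.13), VEGFA (DMSO replicate 1, OTX015 replicate 2 or 3, up to 0.18), BNIP3L (up to 0.14) and HK1 (both without replicate 1 of either group, OTX015 replicate 2 or DMSO replicate 3).

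The falls in SUDHL6 were led by glucose uptake and glycolytic enzymes. SLC2A3 went from 9.29, 9.18 and 8.46 to 8.20, 8.12 and 7.02 (-1.20 ± 0.31, adjusted p = 0.00301), with replicate 3 the lowest in both groups and the call lost without OTX015 replicate 3 (adjusted p = 0.0627). HK2 went from 7.82, 7.79 and 8.24 to 7.24, 7.39 and 7.54 (-0.56 ± 0.19, adjusted p = 0.0228), a call lost without OTX015 replicate 1 or 2 or DMSO replicate 3 (up to 0.152). For both genes no OTX015 array reached the DMSO arrays. ENO1 went from 13.23, 13.20 and 13.26 to 12.90, 12.71 and 12.70 (-0.46 ± 0.08, adjusted p = 3.52e-05). LDHA went from 13.03, 13.24 and 13.22 to 12.75, 12.82 and 12.82 (-0.37 ± 0.09, adjusted p = 0.000929). These are small steps at high intensity, where the arrays of a group agreed closely, and both calls held under every alternative tried. ALDOA went from 11.12, 11.06 and 11.02 to 10.53, 10.59 and 10.49 (-0.53 ± 0.11, adjusted p = 0.000259), but the mean of its 3 detected probes gave 0.0259, so its direction depends on the probe. DDIT4 read 9.64, 9.82 and 8.94 against 10.14, 10.21 and 9.62 (-0.52 ± 0.18, adjusted p = 0.0299), with overlapping groups. Within each replicate number its OTX015 array lay below its DMSO array. The DDIT4 call was lost without DMSO replicate 1 or 2 or OTX015 replicate 3 (adjusted p up to 0.352). GPI fell by 0.36 (adjusted p = 0.0121), a call lost without OTX015 replicate 2 (adjusted p = 0.0517).

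**Figure D4:**
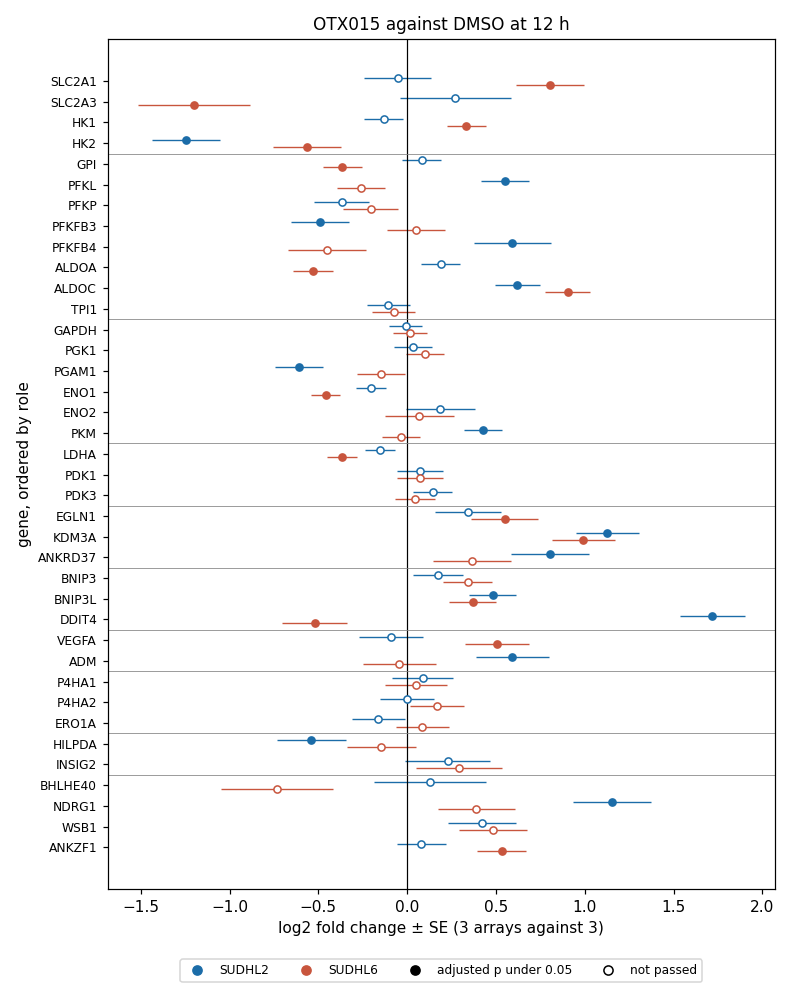
Log2 fold change ± SE of OTX015 against DMSO at 12 h (3 arrays against 3) for the 38 genes, ordered by role, in SUDHL2 and SUDHL6. Filled points passed an adjusted p under 0.05. KDM3A and ALDOC lie right of 0 in both lines, HK2 lies left of 0 in both, and DDIT4 lies at 1.72 in SUDHL2 and at -0.52 in SUDHL6.

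ALDOC, KDM3A and BNIP3L rose in both lines at 12 h, 30% of the genes risen in SUDHL2 and 37.5% of those in SUDHL6. HK2 was the gene fallen in both, 25% and 14.3% of those fallen. The calls of BNIP3L in both lines and of HK2 in SUDHL6 did not hold under every alternative. The overlap of all genes between lines was not computed. DDIT4 rose in SUDHL2 and fell in SUDHL6, and the difference between lines was -2.24 (adjusted p = 2.52e-08). In all, the response to OTX015 at 12 h differed between lines for 8 of the 38 genes, 6 lower in SUDHL6 (6.25% of all genes) and 2 higher (6.24%). Without SUDHL6 DMSO replicate 1 at 12 h the difference passed for 3 genes. With 75th percentile scaling it passed for 6 lower and 5 higher. At 1 h and at 2 h it passed for none. Of all genes, 0.015% and 0.0299% passed lower and higher at 1 h in the limma fit, and 0.269% and 0.397% at 2 h. Below an unadjusted p of 0.05 were none at 1 h and 6 at 2 h, shares not computed over all genes.

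Set directly against not treated cells, which leaves the DMSO arrays out, OTX015 for 12 h was tested in both lines. In SUDHL6, 34 of 38 fell and none rose (14.6% and 16.3% of all genes), with a median of -1.07. SLC2A1 (-0.21, adjusted p = 0.467), HK1, WSB1 and P4HA2 did not pass. In SUDHL2, 19 fell and 2, ALDOC and NDRG1, rose (17.2% and 19.2% of all genes), with a median of -0.47. HILPDA was lower in SUDHL2 (-2.86, adjusted p = 3.2e-15), and PFKFB4 (-3.85, adjusted p = 1.38e-17) and DDIT4 (-2.21, adjusted p = 8.33e-13) were lower in SUDHL6.

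In the panel of 22 untreated lines, 1 array each, levels are given without a test. The array labelled Karpas-422 stood apart: its processed values did not match its own signals, with a rank correlation of 0.775 where the other arrays gave 1. Ranges, ranks and correlations that rest on it are given with and without it. The exceptions, which include it, are the correlations over all pairs of genes and those read against all genes. The 38 genes varied more between lines than genes at large, with a median SD of 0.735 against 0.436 over all genes, and 0.72 without the array labelled Karpas-422. The smallest ranges of the 38 genes were those of ENO1, LDHA and GAPDH. Levels spanned 12.95 to 13.99 for ENO1 (13.89 at the top without the array labelled Karpas-422), 12.70 to 13.85 for LDHA and 12.80 to 13.99 for GAPDH. Their probes also had the highest mean signals of the 38 on the time-course arrays (12980, 12030 and 10300). The part of signal level in these ranges was not tested. Without that array ENO1 stayed the narrowest (range 0.94), and PDK1 (1.10) was narrower than LDHA (1.15) and GAPDH (1.18).

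The widest ranges were of SLC2A3 (4.35 to 12.10, median 7.32), BNIP3 (4.98 to 12.49, median 10.99), BHLHE40 (4.34 to 11.77, median 8.28), NDRG1 (4.97 to 11.97, median 6.34), ADM (4.95 to 11.01, median 6.98) and DDIT4 (6.89 to 12.28, median 9.37). Without the array labelled Karpas-422 the highest levels were 10.63 for SLC2A3, 10.41 for BHLHE40 and 8.20 for NDRG1. NDRG1 then spanned 3.23 and was no longer among the 6 widest, and ENO2 (4.71 to 9.93) took its place. SLC2A3, BHLHE40 and NDRG1 were highest on the array labelled Karpas-422. BNIP3 was highest in SU-DHL-10 and was detected in 20 of the 22 lines, ADM was highest in U-2932, and DDIT4 in SU-DHL-7. Among the genes described here, the one most like BNIP3 across the 22 lines was ALDOA (Spearman's rho 0.78, and 0.84 without Karpas-422), and the one most like DDIT4 was also ALDOA (0.79 and 0.75). SLC2A3 was most like VEGFA (0.58 and 0.55), BHLHE40 and NDRG1 were most like each other (0.58 and 0.52), and ADM was most like ANKRD37 (0.51 and 0.49). Over all 703 pairs the median rho was 0.31, with 174 pairs above 0.5 and none below -0.5. The same was not computed for pairs of all genes. Whether these genes vary together more than genes at large is thus not known. Read against all genes, the closest were NRROS for BHLHE40 (0.91), LOC613266 for NDRG1 (0.84), ZNF772 for ADM (0.83) and SLC2A14 for SLC2A3 (0.78). These exceed the closest matches given above. For DDIT4 the closest was still ALDOA (0.79), and for BNIP3 ATP4A and ALDOA tied (0.78). All values come from single arrays that share a normalisation.

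SU-DHL-7 was the line with the highest level for 10 of the 38 genes, the array labelled Karpas-422 for 7 and SU-DHL-5 for 5. Without that array the counts were 10 for SU-DHL-7 and 6 for SU-DHL-5. OCI-Ly10, OCI-Ly1 and RCK8 each had the lowest level for 5 genes.

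The panel also holds SU-DHL-2 and SU-DHL-6 themselves, which gives another untreated reading of both lines. For 32 of 38 genes the SU-DHL-2 panel array lay nearer to the DMSO 12 h mean of the time course than to its not treated mean, and for SU-DHL-6 this held for 34 of 38. Among the genes that fell with DMSO at 12 h, the counts were 18 of 19 and 33 of 36, but those genes were picked by the same difference. No such count was computed over all genes. Both panel arrays sat on a slide that held no time-course array, and that of SU-DHL-2 had the lowest median signal of the panel (88.27). The part of slide and signal in these counts was not tested. VEGFA read 6.93 on the SU-DHL-6 panel array, beside 9.35 in not treated SUDHL6 and 6.67 after DMSO for 12 h. PFKFB4 read 7.24 there, beside 11.20 and 7.80. HILPDA read 9.19 on the SU-DHL-2 panel array, beside 13.01 in not treated SUDHL2 and 10.68 after DMSO for 12 h.

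Ranked against the other 20 lines, the not treated mean of SUDHL2 lay above a median of 14.5 lines over the 38 genes and that of SUDHL6 above 15. The DMSO 12 h means lay above 10.5 and 3 lines, and the panel arrays of the 2 lines above 6 and 4.5. The not treated means stood above all 20 other lines for 6 genes in SUDHL2 and 4 in SUDHL6, and the DMSO 12 h means and the panel arrays for none. Without the array labelled Karpas-422 the counts were 7 and 4 for the not treated means, 1 and 0 for the DMSO 12 h means and 0 for the panel arrays, and of the medians the DMSO 12 h one of SUDHL2 moved, to 10. HILPDA and EGLN1 were among the 6 in SUDHL2, and VEGFA and PFKL among the 4 in SUDHL6. KDM3A stood above all 20 other lines in both. Neither the counts above all other lines nor the median ranks were computed over all genes. Whether genes at large rank the same way is thus not known. How the cells for these untreated arrays were handled is not in the labels.

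**Figure D5:**
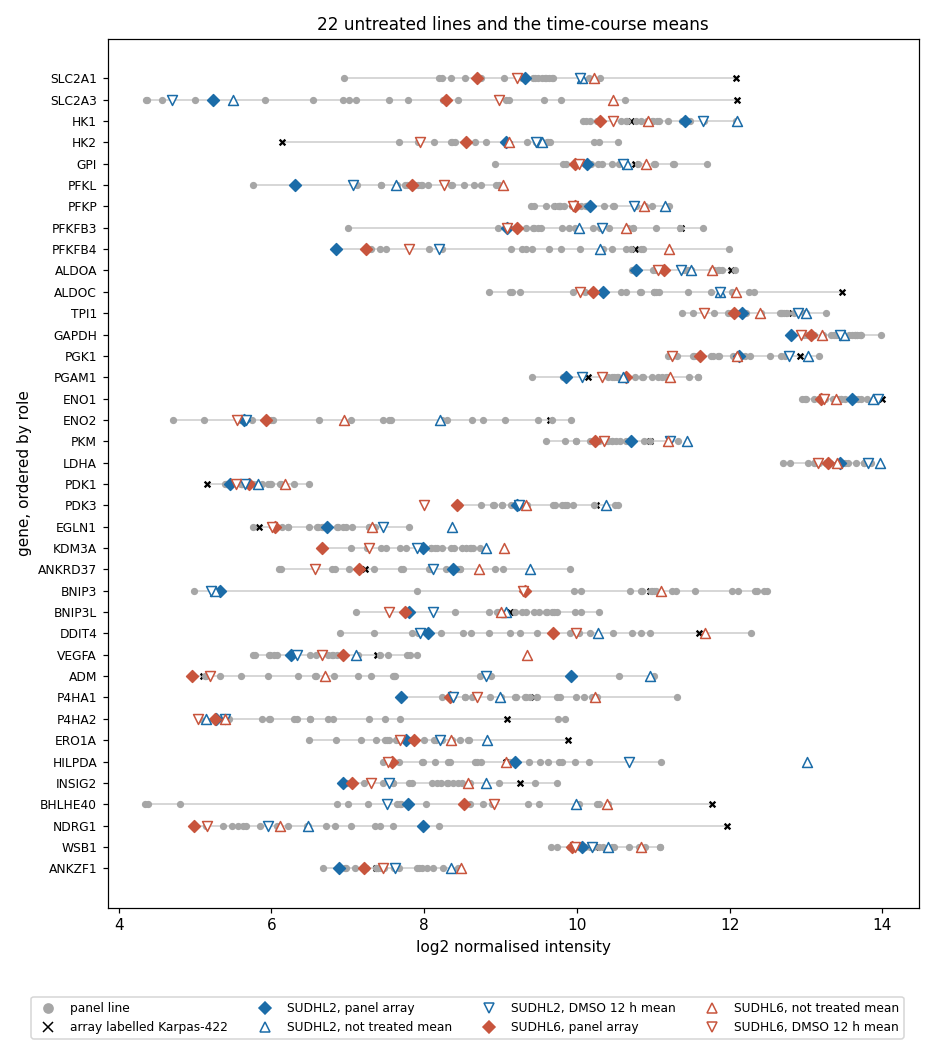
Log2 normalised intensity of the 38 genes, by role, on the 22 panel arrays (points, with the array labelled Karpas-422 as a cross), and the not treated and DMSO 12 h means of SUDHL2 and SUDHL6 (triangles). The panel arrays of the 2 lines (diamonds) lie mostly near the downward triangles, as for VEGFA, PFKFB4 and KDM3A in SUDHL6.

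Other genes of the pathway were read from 3 lists chosen for their role. Of 16 genes of the HIF machinery 15 were tested, and after DMSO for 12 h 4 rose and 2 fell in SUDHL2 (12.1% and 10.9% of all genes) and 2 rose and 1 fell in SUDHL6 (8.73% and 8.18% of all genes). HIF1A, the oxygen-regulated subunit, was higher in SUDHL2 by 0.87 (adjusted p = 3.75e-06) and did not pass in SUDHL6 (0.33, adjusted p = 0.0903). At 2 h it had risen in SUDHL6 (0.53, adjusted p = 0.00562). HIF1AN, which blocks HIF's activation domain, rose by 0.62 and 0.34 (adjusted p = 0.00012 and 0.0495). EGLN2, a prolyl hydroxylase like EGLN1, rose in SUDHL2 (0.37, adjusted p = 0.00319) and did not pass in SUDHL6 (-0.01, adjusted p = 0.975). CITED2, which competes with HIF for its coactivators, fell in SUDHL2 by 0.62 at 1 h, 0.95 at 2 h and 0.67 at 12 h. With OTX015 against DMSO at 12 h, 2 of the 15 rose and 3 fell in SUDHL2 (17.7% and 16.5% of all genes). In SUDHL6 3 rose and none fell (14% and 13%). HIF1A fell by 0.62 in SUDHL2 (adjusted p = 3e-04) and rose by 0.55 in SUDHL6 (adjusted p = 0.00151). CITED2 rose with OTX015 in SUDHL6 by 0.87 at 1 h, 1.10 at 2 h and 1.11 at 12 h. These are transcript levels, and HIF is set mainly by protein turnover.

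Of 38 further hypoxia targets 23 were tested. After DMSO for 12 h, 8 fell and 1 rose in SUDHL2 (median -0.24), where 10.9% and 12.1% of all genes did. In SUDHL6 10 fell and none rose (median -0.29), where 8.18% and 8.73% did. ZNF395, a transcription factor that hypoxia induces, fell by 1.56 in SUDHL2 and 1.66 in SUDHL6 (adjusted p = 5.34e-09 and 4.57e-09). FAM162A (-0.81 and -0.90) and the chemokine receptor CXCR4 (-0.69 and -0.91) fell in both lines. TFRC, the transferrin receptor, rose in SUDHL2 by 1.09 (adjusted p = 1.85e-08). With OTX015 against DMSO at 12 h, 3 rose and 1 fell in SUDHL2 (17.7% and 16.5% of all genes), and 4 rose and 2 fell in SUDHL6 (14% and 13%).

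Of 37 further genes of glucose metabolism 26 were tested. After DMSO for 12 h, 4 fell and 1 rose in SUDHL2, and 4 fell and 2 rose in SUDHL6, with medians of 0.03 and 0.06, beside the same shares of all genes. The muscle enolase ENO3 (-1.26 and -1.10) and the phosphoglucomutase PGM1 (-0.56 and -0.72) fell in both lines. With OTX015 against DMSO at 12 h, 4 rose and 5 fell in SUDHL2 and 6 rose and 4 fell in SUDHL6, near the shares of all genes (17.7% and 16.5%, then 14% and 13%). SLC2A5, a fructose transporter, fell by 2.24 in SUDHL2 (adjusted p = 5.56e-15) and by 1.88 in SUDHL6 (adjusted p = 1.56e-12). The pentose phosphate dehydrogenase PGD rose by 0.93 and 0.66, and the mitochondrial pyruvate carrier subunit MPC1 rose by 0.81 and 0.70. The ribose isomerase RPIA fell by 1.07 in SUDHL2 and by 0.42 in SUDHL6.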

How the data were processed

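Total RNA was labelled with biotin and hybridised to 64 Illumina arrays on 7 slides. The deposited signal table holds 1 linear intensity per probe and array, and a second deposited table holds the authors' processed log2 values, with medians of 6.64 (time course) and 6.74 (panel). No label gives the authors' method, the array model or the build. Each array's processed values fitted its own signals better than any other array's in 63 of 64 cases.

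From the intensities, signals were corrected with normexp (offset 16) and quantile normalised over 64 arrays in limma 3.58.1 (R 4.3.3). A probe was kept where it exceeded background at p below 0.01 on at least 3 of 42 arrays; background was the part of an array's values below their mode, mirrored. Of 47231 probes, 30113 carried 1 symbol, 8 several and 17110 none, 26037 passed, and no symbol was updated. Each gene used its named probe of highest mean signal on the 42 arrays, and was tested where that probe passed. Other probes of 16 genes were detected, and of 45 calls that could be compared, none was called the opposite way and 7 had the opposite sign. GAPDH, ENO1, LDHA, PGK1 and other glycolytic genes have many processed copies in the genome, so their probes may read more than 1 locus.

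Group means were fitted by lmFit and eBayes (trend), and 23 contrasts were adjusted by Benjamini-Hochberg, two-sided. A fold against a group without a detected array is a lower bound. The method was tested on simulated data. The genes, lists and tests were chosen with earlier results of these data known. By rule, all 40 genes are described by role, and per-array values are given for up to 6 risen and 6 fallen genes per contrast, largest first; other genes are named from 3 lists. The alternatives were 75th percentile scaling, quantiles over the 42 arrays alone, no background correction, offset 50, the processed values, no filter, the mean of all detected probes, replicate number or slide as a block, replicate 3 of SUDHL6 left out and each array left out in turn. Replicate numbers paired the arrays only between OTX015 and DMSO in SUDHL6, where each pair's deviations correlated above 0.1 at every hour (0.124 to 0.438). Promoter windows came from RefSeq. The panel gives no subtype here, so no groups of lines were formed.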

Additional observations from a re-analysis of the deposited data

Results flagged for a closer look

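The response differed between lines, by a test of the difference itself (the SUDHL6 minus the SUDHL2 log2 fold change, limma, adjusted over all genes), for these genes. For DMSO at 2 h the difference was -0.88 for SLC2A1 (adjusted p = 0.0388), -0.57 for PDK1 (adjusted p = 0.046), -1.47 for ANKRD37 (adjusted p = 0.00194), -0.70 for ERO1A (adjusted p = 0.0334) and 2.40 for BHLHE40 (adjusted p = 0.000408). ANKRD37 and BHLHE40 kept their call under every alternative. The others lost it without several single arrays (adjusted p up to 0.144 for SLC2A1, 0.184 for PDK1 and 0.146 for ERO1A).

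For DMSO at 12 h the fall was larger in SUDHL6 for 6 genes of uptake and the upper steps: SLC2A1 (-0.98), HK2 (-1.08), GPI (-0.82), PFKFB4 (-1.28), ALDOA (-0.58) and TPI1 (-0.64). It was also larger for PGK1 (-0.60), PKM (-0.61), KDM3A (-0.86) and P4HA1 (-0.92), with adjusted p between 0.000758 and 0.0298 over these 10 genes. ALDOC (-2.04), VEGFA (-1.90), PFKFB3 (-1.86) and BNIP3 (-1.75) had the widest differences. ENO2 (1.16, adjusted p = 0.00705) fell further in SUDHL2, from a higher not treated mean (8.21 against 6.94) to a similar low level. Of these 15, ALDOC, VEGFA, PFKFB3, BNIP3, ENO2, GPI, HK2 and PFKFB4 kept their call under every alternative. Single arrays or the mean of probes ended those of SLC2A1, KDM3A, ALDOA, TPI1, PGK1 and P4HA1 (adjusted p up to 0.271), and PKM lost it without replicate 3 of SUDHL6 (0.0803).

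For OTX015 against DMSO at 12 h the difference was negative for DDIT4 (-2.24, adjusted p = 2.52e-08), SLC2A3 (-1.47, adjusted p = 0.0216), PFKFB4 (-1.04, adjusted p = 0.0188), PFKL (-0.81, adjusted p = 0.00259), ALDOA (-0.72, adjusted p = 0.00122) and PKM (-0.47, adjusted p = 0.0347). It was positive for SLC2A1 (0.86, adjusted p = 0.0284) and HK1 (0.47, adjusted p = 0.0398). DDIT4 and PFKL kept their call under every alternative. With the mean of all detected probes HK1 (adjusted p = 0.332), ALDOA (0.62) and PKM (0.553) did not pass, and SLC2A3, PFKFB4 and SLC2A1 lost their call without some single arrays (adjusted p up to 0.108, 0.117 and 0.096).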

How the results depend on the processing

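Of the genes called at 12 h with DMSO, 18 of 19 in SUDHL2 and 33 of 36 in SUDHL6 kept direction and call under every alternative run, as did 7 of 10 and 9 of 15 at 2 h and 2 of 5 and 4 of 4 at 1 h. With OTX015 the counts were 8 of 14 (SUDHL2, 12 h), 1 of 5 (SUDHL6, 2 h) and 5 of 15 (SUDHL6, 12 h). ALDOA in SUDHL6 with OTX015 at 12 h turned to 0.0259 with the mean of all detected probes. For DMSO at 1 h in SUDHL2 the count of 5 became 9 without background correction, 8 with the deposited values, 10 with the replicate block and 2 to 5 with single arrays left out. The difference between lines with DMSO at 1 h went from 0 to 1 without background correction, with offset 50, with the deposited values, with the mean of all detected probes, with slide as a block and without replicate 3 of SUDHL6, to 2 with the replicate block, and was 0 to 2 with single arrays left out. That at 2 h went from 5 to 9 with the replicate block and 2 to 5 with single arrays left out. For OTX015, the difference between lines at 2 h went from 0 to 2 with the replicate block, to 3 without replicate 3 of SUDHL6, and 0 to 1 with single arrays left out, and that at 12 h from 8 to 5 with the mean of all detected probes and 3 to 9 with single arrays left out. OTX015 at 2 h in SUDHL2 went from 0 to 1 with the replicate block and with slide as a block, and in SUDHL6 the count of 5 became 2 to 5 with single arrays left out. Where the replicate numbers paired the arrays (OTX015 against DMSO in SUDHL6), the block gave 0, 6 and 19 genes at 1, 2 and 12 h against 0, 5 and 15 without it, and no call was lost. Elsewhere the arrays share only a number. The cause of these changes was not tested. With 3 arrays a group, their number limits the precision. Values of SLC2A3, BNIP3 and P4HA2 in SUDHL2 and of ADM, NDRG1 and PDK1 in SUDHL6 lie near background, where steps are compressed. So do those of ENO2 at 12 h in both lines.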
